A study of Drosophila melanogaster with 3 samples.

Results

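The genes described here are 10 regulators of neuroblast age and of neuron identity in Drosophila melanogaster, taken from a survey of where the protein Ind sits on embryonic chromatin. The members were chosen by name, as hb, Kr, nub, pdm2, cas, grh, svp, Lim1, Lim3 and zfh1, and were found by symbol in the Ensembl BDGP6 annotation. They are 10 of 13968 protein-coding genes. For each, every peak summit in the gene body or the 2000 bp upstream, and every summit within 20 kb of the body, was collected.

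The assay was chromatin immunoprecipitation followed by sequencing on a transgenic strain, ind-GFP, that stably makes Ind with GFP at its C-terminus. Whole embryos of both sexes, aged 0 to 16 hours, were used, and an antibody against GFP recovered the sonicated chromatin. The 3 biological replicates came from this 1 line and form 1 group, so there is no other genotype, treatment or stage to compare and no test between conditions could be made. What drives the transgene is known from the labels only as an insertion that targets ind. Because whole embryos were used, strong occupancy in few cells and weak occupancy in many cannot be told apart.

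Neuroblasts, the stem cells of the fly nerve cord, express a fixed sequence of transcription factors as they age: Hunchback (hb), Krüppel (Kr), the POU proteins Nubbin and Pdm2 (nub, pdm2), Castor (cas) and Grainy head (grh). Each factor marks a window in which a certain set of neurons is born, and the nuclear receptor Seven-up (svp) closes the Hunchback window. The LIM-homeodomain proteins Lim1 and Lim3 and the zinc-finger homeodomain protein Zfh1 act later, in postmitotic neurons, where Lim3 and Zfh1 are known for their part in motor neuron fate and axon exit. Ind is itself a homeodomain protein, required for the intermediate column of neuroblasts.

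In dm6, hb lies at chr3R:8690980-8697822 on the minus strand, cas at chr3R:5712975-5716805 on the minus strand, svp at chr3R:12258737-12302785 on the plus strand and zfh1 at chr3R:30765926-30789202 on the plus strand. On arm 2L, nub (chr2L:12587625-12628135) and pdm2 (chr2L:12657165-12686306), both on the plus strand, are neighbours, and Lim3 lies at chr2L:19079256-19108427 on the minus strand. Kr is at chr2R:25226611-25231394 and grh at chr2R:17801132-17842820, both on the plus strand, and Lim1 at chrX:8756539-8805804 on the minus strand. The spans run from 3.831 kb for cas to 49.27 kb for Lim1, with hb and Kr the other short genes.

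Ind-eGFP peaks were found inside 3 of the 10 genes: grh with 2 summits, Lim1 with 2 and zfh1 with 1. These 5 summits all lay in introns, and each was recovered in all 3 replicates. The early temporal genes hb, Kr, nub, pdm2 and cas, together with svp and Lim3, held no summit of the authors' optimal list. That list was the 5809 strongest of the 24244 peaks called on the 3 replicates pooled. This count of 3 in 10 stands beside 34.2% of all protein-coding genes, which is close to it. Within 20 kb, 7 of the 10 genes had a summit, 19 summits in all, beside 83.8% of protein-coding genes. Kr, nub and svp had none. Their nearest optimal summits were 59272 bp, 38447 bp and 37106 bp from an annotated start of the gene.

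Where the summits lay is described against the same background. None of the 10 had an optimal summit within 500 bp of 1 of its own annotated starts, whereas 23.9% of protein-coding genes did. In the gene body alone, the same 3 of 10 members had a summit, and 13.8% of protein-coding genes did. A longer body has room for more summits, and the members had a median span of 29.16 kb against 2.164 kb for all protein-coding genes. Among genes whose span was within 25% of a member's, the share with a summit in the body ran from 12.1% for the genes as short as cas to 59.5% for those as long as Lim1. The share with a summit at an own start stayed between 30.4% and 34.3%.

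**Figure D1:**
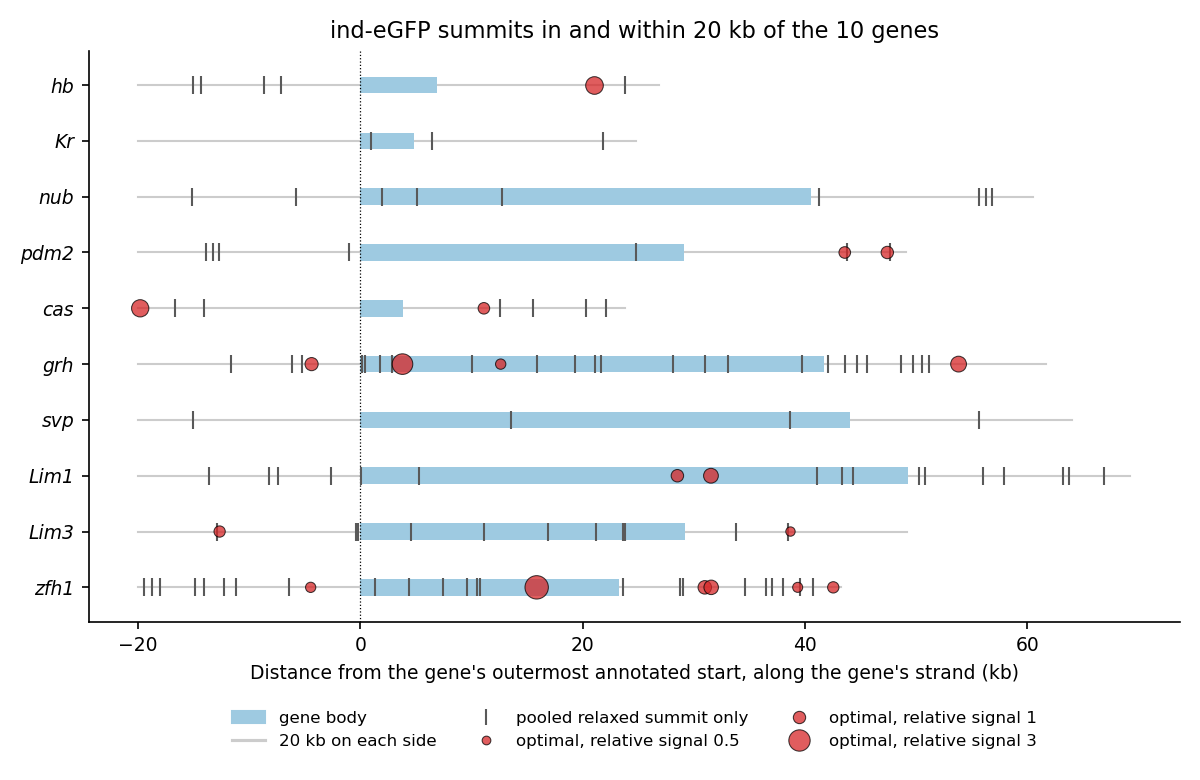
Each row is 1 gene, drawn from its outermost annotated start at 0 along its own strand, in kb. Blue bars are gene bodies, grey lines the 20 kb on each side, red circles optimal summits with area in proportion to their relative signal, and ticks the summits found only in the pooled relaxed list. Red circles lie inside the bodies of grh, Lim1 and zfh1 alone, and Kr, nub and svp have none on their lines.

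The strengths of peaks are given as relative signal, the authors' signal value of a peak divided by the median of the optimal list, so that the middle peak is 1. In a replicate, the strongest peak with a summit within 200 bp of the optimal summit was taken, and divided by the median of the peaks so paired with the optimal list. The sequences below are the 100 bp on each side of 5 summits, chosen because they are the in-gene peaks of zfh1 and Lim1, on which the results turn, and 2 nearby peaks of zfh1 and cas that lay away from any promoter. They are from the RefSeq copy of the dm6 assembly, plus strand, 5′ to 3′. Capitals mark TAATTA, the core that many homeodomains bind, GAGAG, the GAGA factor element, and ACAGTG, a 6-mer described with the motifs, each on either strand.
zfh1 intron, chr3R:30781684-30781884: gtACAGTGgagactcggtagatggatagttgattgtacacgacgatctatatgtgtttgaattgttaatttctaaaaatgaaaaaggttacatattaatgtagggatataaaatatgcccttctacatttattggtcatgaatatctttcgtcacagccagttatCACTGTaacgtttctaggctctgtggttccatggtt
Lim1 intron, first, chrX:8774161-8774361: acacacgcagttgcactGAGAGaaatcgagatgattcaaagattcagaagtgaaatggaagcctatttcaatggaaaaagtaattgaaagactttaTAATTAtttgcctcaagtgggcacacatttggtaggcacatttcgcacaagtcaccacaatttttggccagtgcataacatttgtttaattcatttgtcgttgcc
Lim1 intron, second, chrX:8777182-8777382: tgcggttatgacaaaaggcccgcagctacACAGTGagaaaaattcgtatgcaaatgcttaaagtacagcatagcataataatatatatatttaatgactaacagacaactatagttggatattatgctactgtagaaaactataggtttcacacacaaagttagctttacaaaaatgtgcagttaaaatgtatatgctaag
zfh1 upstream, chr3R:30761344-30761544: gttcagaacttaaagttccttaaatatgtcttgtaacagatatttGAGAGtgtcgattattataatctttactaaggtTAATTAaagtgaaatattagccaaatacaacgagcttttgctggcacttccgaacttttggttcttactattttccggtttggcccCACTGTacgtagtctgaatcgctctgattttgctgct
cas downstream, chr3R:5705597-5705797: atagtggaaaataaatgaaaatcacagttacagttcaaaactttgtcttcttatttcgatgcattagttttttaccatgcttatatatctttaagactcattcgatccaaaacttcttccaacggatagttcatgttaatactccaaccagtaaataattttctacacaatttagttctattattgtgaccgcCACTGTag

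Among the temporal genes, grh alone held optimal peaks. Its protein, Grainy head, is the last factor of the series and also a regulator of epidermal genes. Its stronger peak, at chr2R:17804785-17805106, lay in an intron 2046 bp downstream of a grh start and ranked 567 of 5809. Replicates 1 to 3 gave relative signals of 2.245, 2.717 and 2.96, a mean of 2.64 ± 0.364 (SD, n = 3). Replicate 1 was the lowest, and all 3 were more than 2 times the median peak. The second peak, at chr2R:17813551-17813950, was 593 bp upstream of another grh start and ranked 4371. Its values were 0.796, 0.622 and 0.648 in replicates 1 to 3, a mean of 0.689 ± 0.0939 (SD, n = 3), below the median peak in every replicate and below every value of the stronger peak. The next summit lay 4399 bp upstream of the gene, inside the gene Dhit and the antisense RNA gene asRNA:CR45270. Its replicates gave 0.626, 0.784 and 1.645 (mean 1.018 ± 0.549, SD, n = 3), so replicate 3 alone placed it above the median peak. The fourth, 12140 bp beyond the 3′ end, was 284 bp upstream of a start of Orai, a calcium channel gene, at 1.677, 1.763 and 1.456.

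The gap gene hb, which opens the temporal series, had no summit of the pooled list in its body or upstream window. The nearest optimal peak, at chr3R:8676667-8676893, lay 14215 bp beyond its 3′ end and 150 bp upstream of the start of CG11755. That peak was strong, at 2.013, 1.7 and 2.179 in the 3 replicates (mean 1.964 ± 0.243, SD, n = 3). Kr, whose product follows Hunchback, had 1 weak pooled peak, in its coding sequence at rank 15002 of 24244, with replicate values of 0.289, 0.258 and 0.171.

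The neighbouring POU genes nub and pdm2, which act redundantly in the middle of the series, had no optimal summit in either gene. Their strongest pooled peaks were 0.341 for nub, in an intron at rank 9088, and 0.156 for pdm2, 999 bp upstream at rank 22205. The nub peak was present in all 3 relaxed lists, at 0.213, 0.406 and 0.270, and the pdm2 peak in 2 of them. Both optimal peaks near pdm2 lay at other genes' promoters downstream: 4 bp upstream of a CG17036 start (0.839, 0.990 and 0.737) and 128 bp upstream of a CG5776 start (0.511, 0.989 and 1.158). The second of these ranked 7175 in replicate 1, too low to count as found there.

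The zinc-finger gene cas, the window before grh, had no pooled summit in its body or the 2000 bp upstream. Of the 2 optimal peaks nearby, 1 lay 7278 bp beyond its 3′ end in an intron of plx, at 1.074, 0.913 and 0.724 (mean 0.904 ± 0.175, SD, n = 3). The other lay 19824 bp upstream of cas and 119 bp upstream of a CG1236 start, at 2.25, 1.67 and 1.894 (mean 1.938 ± 0.293, SD, n = 3). This second peak sat just inside the 20 kb limit, as did a zfh1 peak at 19275 bp. The first optimal summits beyond the 2000 bp upstream limit were those at 4399 bp from grh and 4482 bp from zfh1. The nuclear receptor gene svp spans 44.05 kb and held 2 weak intronic peaks, the stronger at 0.234.

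Of the neuron identity genes, zfh1 held the strongest peak of all 10. It lay at chr3R:30781633-30781925 in an intron, 1474 bp upstream of an internal zfh1 start, and ranked 332 of 5809. The antisense RNA gene asRNA:CR45189 runs through the same place. Over replicates 1 to 3 the relative signal was 2.76, 3.76 and 3.688, a mean of 3.403 ± 0.558 (SD, n = 3). Replicate 1 was again the lowest. The peak stood above the stronger grh peak within each of the 3 replicates, although the ranges of the 2 peaks over replicates overlapped. Only 3.6% of protein-coding genes had a stronger best peak than zfh1, and 8.11% of the 493 genes of similar span. A weaker peak 4482 bp upstream, the only optimal peak near any of the genes that was both outside all genes and closest to a member's own start, was even between replicates at 0.729, 0.658 and 0.669.

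Downstream of zfh1, 3 summits lay in introns of wts, which encodes the Warts kinase of the Hippo pathway. The nearest annotated start to the first 2 was that of the microRNA gene mir-1013, and they stood at means of 1.178 ± 0.114 and 1.328 ± 0.184 (SD, n = 3). The third, 1346 bp inside wts from a start, had a mean of 0.619 ± 0.0571 (SD, n = 3). The last was 140 bp upstream of a start of cindr, an adaptor protein gene, with a mean of 0.7997 ± 0.152 (SD, n = 3). With 6 summits, zfh1 had the most within 20 kb, but 4 of them lay in wts or next to cindr.

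Lim1, expressed in interneurons and some motor neurons, held 2 intronic peaks on the X chromosome. The stronger, chrX:8774151-8774349, lay 11092 bp downstream of the nearest Lim1 start, with values of 1.179, 1.56 and 1.328 (mean 1.356 ± 0.192, SD, n = 3). The second, chrX:8777201-8777326, lay 8071 bp downstream of a start, with values of 0.780, 1.221 and 0.875 (mean 0.959 ± 0.232, SD, n = 3). Replicate 2 was the highest at both peaks and the 2 ranges overlapped. Lim1 had no other optimal peak within 20 kb, so it is the 1 gene with a peak whose nearby peaks were all its own. Lim3 held none in its body or the 2000 bp upstream, where 65.0% of the 409 genes of similar span had one. Its strongest pooled peak reached 0.341 in an intron at rank 9083. The 2 optimal peaks near Lim3 were at 0.578 by a start of CG10702, found in 2 replicates, and at 0.840, found in 3, 797 bp upstream of Ddc, the dopa decarboxylase gene.

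**Figure D2:**
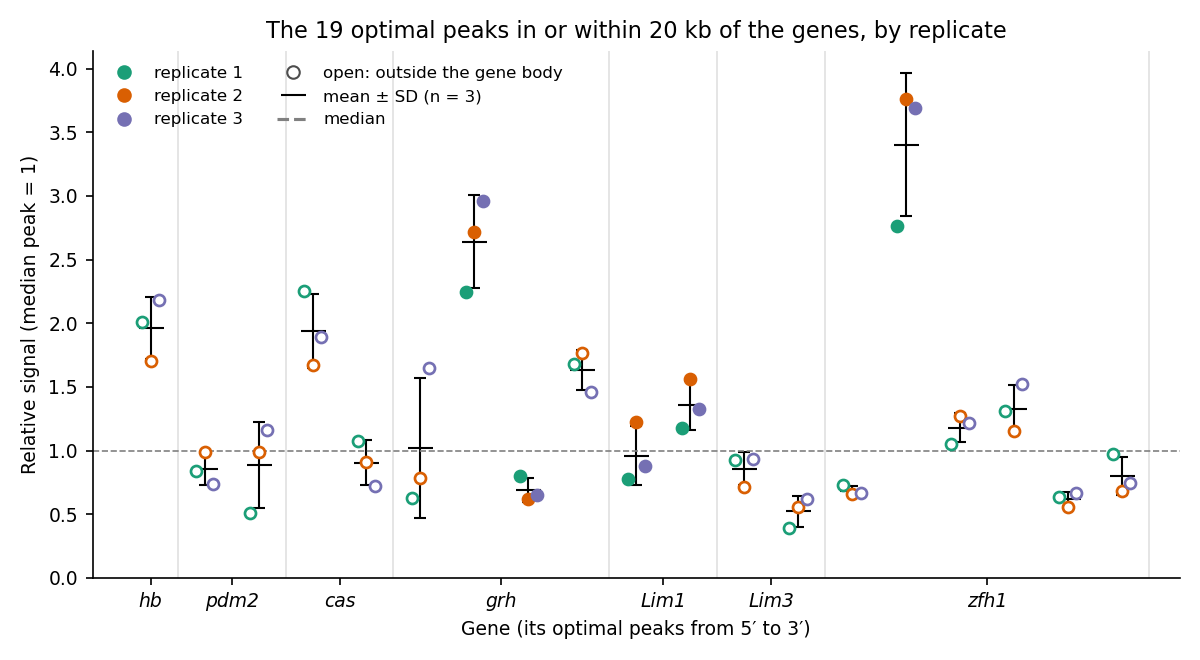
Relative signal (median optimal peak = 1) of the 19 optimal peaks in each of the 3 replicates, with the mean and SD as black bars; filled points are in a gene body and open points outside it. The zfh1 intron peak (2.76 to 3.76) and the stronger grh peak (2.245 to 2.96) stand above all other values drawn except 1, the 2.25 of the cas neighbour in replicate 1.

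Of the 19 summits, 17 (89.5%) were found in all 3 replicates, beside 70.1% of the 5809. The 2 others were each missed in replicate 1. When intervals had to overlap by 50% of both, in place of summits within 200 bp, 12 of the 19 were found in all 3. No share of the 5809 is given by that rule. Median relative signal was 1.44 over the 5 summits in the genes and 1.02 over the 19, beside 1 for the list by definition. By annotation, 7 of the 19 were at a promoter, meaning within 500 bp of any annotated start, 10 were in introns and 2 between genes. Over all optimal summits, 48.1% were at promoters, 37.0% in introns and 13.4% between genes. Every one of the 7 promoter summits was at a start of a neighbouring gene, none of a member. Within 1000 bp of a start the count was 9. It then took in the second grh peak, 593 bp from a grh start, and the peak 797 bp upstream of Ddc. No share of all optimal summits is given at 1000 bp.

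In the replicates' own lists, taken to the same length of 5809 strongest peaks, grh, Lim1 and zfh1 were again the members with a summit in each. The counts were 5, 6 and 7 summits in replicates 1, 2 and 3, and 3 genes in each (mean 3.0 ± 0.0 genes, SD, n = 3). The shares of all protein-coding genes were 34.9%, 33.0% and 34.6%. The pooled relaxed list, which keeps 24244 peaks and background regions, put a summit in 8 of the 10 members, 45 summits in all, beside 61.0% of protein-coding genes. Where its q-value was at least 2 on the −log10 scale, the members with a summit were 3 in number, with 10 summits, beside 41.4%. Of the 40 pooled summits in members that were outside the optimal list, 12 were present in the relaxed lists of all 3 replicates, beside 26.5% of all 18435 such peaks. Their median relative signal was 0.176, beside 0.21.

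Some summits of the pooled list, which also keeps background regions, lay near members' starts. The pooled list had 6 summits within 500 bp of an own start, in 3 members, grh with 3, Lim3 with 2 and Lim1 with 1, beside 44.1% of protein-coding genes. The strongest, 170 bp into grh, had a relative signal of 0.520 at rank 6061. It was present in the lists of replicates 2 and 3 and not in that of replicate 1. Its −log10 q-value was 3.606. The other summits were below the cut of 2, at 0.092 and 0.161 in grh, 0.163 and 0.107 at Lim3 and 0.578 at Lim1. The 2 Lim3 summits were paired with the same peak of replicate 1, at rank 10261. The grh gene also held the most weak peaks, 13, followed by Lim3 with 8, zfh1 with 6 and Lim1 with 5.

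**Figure D3:**
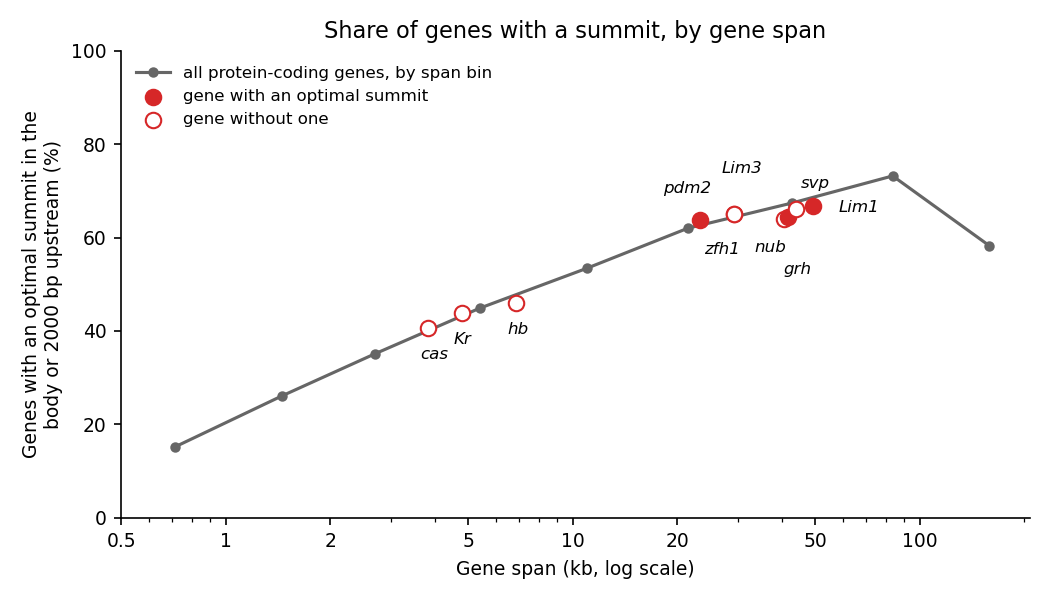
Share of protein-coding genes with an optimal summit in the body or 2000 bp upstream (percent) against gene span (kb, log scale). The grey line gives all genes in 9 span bins, and circles give each member's span and the share among genes within 25% of it. That share is 40.7% to 46.0% for the 3 short genes cas, Kr and hb and 63.7% to 66.8% for the 7 long ones, of which grh, Lim1 and zfh1 have a summit.

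The members were also set against genes of their own length. The strongest pooled peak of zfh1, grh and Lim1 was 3.602, 2.793 and 1.438, above the medians of 0.794, 0.783 and 0.788 for genes of similar span. The same value was below the median of similar genes in the other 7 members. For nub, pdm2, svp and Lim3 this already followed from their lack of an optimal summit. Optimal peaks are the strongest pooled peaks, and 64.0% to 66.1% of the genes of similar span had one. The strongest pooled peak was 0 in hb and cas, which held no pooled peak. It was between 0.156 and 0.341 in Kr, nub, pdm2, svp and Lim3. Of the genes as long as pdm2, 95.8% had a stronger best peak, and 88.4% of those as long as svp. No test was made of these differences.

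**Figure D4:**
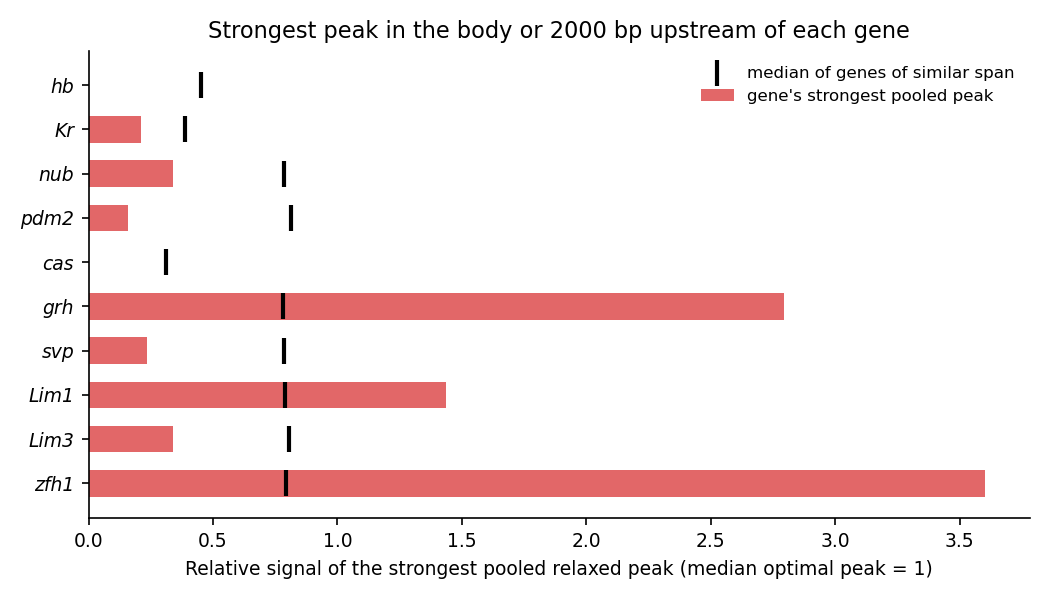
Relative signal of the strongest pooled relaxed peak in the body or 2000 bp upstream of each gene (red bars) and the median of the same value over genes of similar span (black marks). The bars of grh, Lim1 and zfh1 pass their marks, at 2.793, 1.438 and 3.602, and the other 7 bars, 2 of them at 0, do not.

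In sequence, the windows of 100 bp on each side of the 19 summits were AT-rich, at 65.5%, against 57.7% in flanks 1000 bp away. All optimal summits and their flanks gave 65.0% and 57.4%. The homeodomain core TAATTA was in 5 of the 19 windows (26.3%), beside 18.1% of all optimal windows and 12.3% of all flanks. In the stronger Lim1 peak its centre was 2 bp from the summit, in the stronger grh peak 14 bp, and at the zfh1 upstream peak 20 bp. The zfh1 intron peak, the strongest, held no match to the core. The element GAGAG was in 9 of the 19 (47.4%), beside 20.4% of all optimal windows, and in 13 of the 38 flanks of the same summits (34.2%). With 50 bp on each side, GAGAG was in 3 of the 19 (15.8%), beside 8.6% of the other optimal windows. With 200 bp it was in 12 (63.2%), beside 42.5%. The homopolymer AAAAAA, in 48.5% of all optimal windows, was in 6 of the 19 (31.6%) and in none of the 5 windows inside the genes. TGCAAAT, part of the POU octamer, and CACCTG, an E-box of the Snail and Zfh1 kind, were in 1 window each. CAGGTAG, the Zelda element, ACCGGTT, the Grainy head element, AGGTCA, the nuclear receptor half-site, and TATCGATA, the DREF element, were in none, and were in 0.826%, 0.585%, 4.48% and 3.79% of all optimal windows.

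To describe sequence shared with the rest of the list, 6-mers were ranked over the 5790 optimal summits away from the members, by the ratio of their share at summits to that in flanks. The ranking was added after the data had been seen. The 517 6-mers held by at least 10% of those windows were led by ACACTG with a ratio of 2.61. The next was AGTGTA with a ratio of 2.51. The 6-mer in place 3 was ACAGTG, with 2.38. They can overlap, since a copy of the last followed by T holds the first on the other strand. The homeodomain core ranked 156. The 6-mer ACAGTG was in 9 of the 19 member windows (47.4%), beside 20.2% of the others, and in 6 of the 38 flanks (15.8%). The zfh1 intron window printed above holds it 2 times, at 96 bp and 68 bp from the summit, and the first wts peak downstream of zfh1 also 2 times. In windows of only 50 bp on each side, ACAGTG was in 2 of the 19 (10.5%), beside 8.15% of the others. The leading 6-mer was in 3 of the 19 windows, beside 19.9% of the others, and the next in 2, beside 17.8%. A match is a description of these letters, not of a site that is bound.

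Other genes of the same pathways were counted in the same way. Among 16 further temporal genes, which act in neuroblasts of the brain and optic lobe or in late windows, 8 had an optimal summit in the body or 2000 bp upstream, 19 summits in all, beside 34.2% of protein-coding genes. The median span of these 16 genes was 28.68 kb, long like that of the members. Of all protein-coding genes spanning 16 to 32 kb, 62.0% had such a summit, and of those spanning 32 to 64 kb, 67.4%. The strongest peaks of the 16 genes were at chinmo (relative signal 2.458, rank 726), mamo (2.382), br (2.182) and hth (2.026). Chinmo, Mamo and Broad are transcription factors of neuron age, and Homothorax opens the series of the optic lobe. The chinmo peak was 1656 bp upstream of a chinmo start and steady between replicates, with a mean of 2.366 ± 0.0877 (SD, n = 3). The br peak, in an intron, was nearest to a start of Mur2B, and hth held 9 summits over 132.0 kb. The median strongest pooled peak was 0.531 over these 16 genes, 0.287 over the 10 members and 0.223 over all protein-coding genes. The last are mostly far shorter, with a median span of 2.164 kb. For genes with a span like that of pdm2, 29.14 kb, the median was 0.814, above that of either list.

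Among 12 further genes of motor neuron and neuron identity, 3 had a summit, beside the same 34.2%: eg, fkh and dac, at 0.971, 0.852 and 0.662. All 3 peaks were at promoters, 341 bp upstream of an eg start, 216 bp upstream of a fkh start and, for dac, 388 bp upstream of a Nepl8 start. The fkh peak was found in 2 replicates and was uneven, with 2.36 in replicate 1 against 0.235 and 0.621 in replicates 2 and 3. The motor neuron genes eve, exex, tup and HGTX, whose products set which muscles an axon reaches, had none. The median strongest pooled peak of this list was 0.215. The 12 genes had a median span of 12.61 kb. Of all protein-coding genes spanning 8 to 16 kb, 53.4% had an optimal summit in the body or 2000 bp upstream.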

How the data were processed

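The files give peaks from ind-eGFP chromatin immunoprecipitation in 3 biological replicates of whole embryos. By the deposited notes, the authors called relaxed peaks per replicate against 1 control (not analysed here) and on the 3 pooled, and kept as optimal those that passed the irreproducible discovery rate. The sources used here name neither aligner nor caller. Each peak's deposited signal and −log10 q-value were made by the authors and only describe peaks within 1 list. Read depth is unknown, so no interval that needs it is given. Chromatin fragments ranged from 200 to 800 per the labels.

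Lists of 30000, 27570 and 25725 peaks (replicates 1 to 3), 24244 (pooled) and 5809 (optimal) in dm6 were joined by summit to Ensembl release 115 genes, transposable elements left out, and to RefSeq sequence of the same assembly. Positions are 1-based. An optimal peak was found in a replicate when 1 of its 5809 strongest peaks had a summit within 200 bp. The members and lists were chosen with earlier results of these data known, so counts and medians are given beside all genes, with no test, and SDs cover 3 replicates. Genes named were the 10 members, the gene with the nearest start to each optimal peak within 20 kb, genes overlapping a member's peak, and up to 4 genes of each other list with the strongest peak; the eve, exex, tup and HGTX genes were named after their values were seen. Counting code was tested on simulated data. Python 3.11.15, numpy 2.4.6, pandas 2.3.3 and matplotlib 3.10.9 were used.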

Additional observations from a re-analysis of the deposited data

How the results depend on the processing

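The count of members with a summit was 3 under each of the 9 alternative lists and windows tried, though the background they stand beside moved from 34.2% of protein-coding genes to between 13.8% (gene body alone) and 42.9% (5000 bp upstream). Summits within 20 kb, 19 in the main list, were 11 among optimal peaks above the median signal and 39 in the pooled list at a q-value cut of 2 on the −log10 scale, where summits in the members numbered 10 in place of 5. Members with a summit in replicate 1 were 5 of 10 at that q-value, beside 49.4% of protein-coding genes, and in the whole relaxed lists they were 9, 10 and 9 in replicates 1, 2 and 3, beside 69.0%, 63.9% and 64.9%. Of the other temporal genes, 8 in the main list, the count was 5 above the median signal, beside 22.0% of protein-coding genes. It was 5 among peaks found in all 3 replicates, beside 27.1%. With 1 replicate set aside and peaks kept only if found in both others, it was 5 to 6, beside 27.8% to 30.1%. The count was 9 in the pooled list at that q-value, beside 41.4%, and 7 in the gene body alone, beside 13.8%. With 5000 bp upstream it was 9, beside 42.9%, and by nearest start 8, beside 24.8%. Of the other motor neuron and neuron identity genes, 3 in the main list, the count was 0 above the median signal, beside 22.0%. It was 1 among peaks found in all 3 replicates, beside 27.1%. In the gene body alone it was 0, beside 13.8%, and by nearest start 7, beside 24.8%. The pooled list at that q-value gave 4, beside 41.4%, and 5000 bp upstream 4, beside 42.9%. Setting aside 1 replicate in the same way gave 1 to 2, beside 27.8% to 30.1%. The lowest of these, 1, was without replicate 1, and of the temporal list 5 was without replicate 2 or replicate 3. Motif counts depended on the window. The causes were not tested. No paired analysis was possible because there was 1 group. Peaks weaker than the lists keep could not be seen, and depth is unknown.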
